A study of Homo sapiens with 9 samples.

Results

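The 10 genes described here mark embryonal carcinoma cells, the stem cells of a teratocarcinoma, and most fall as such cells differentiate. They are POU5F1, NANOG, SOX2, LIN28B, DPPA4, TDGF1, DNMT3B, L1TD1, ZFP42 and GDF3. They were chosen by name, as the non-control probes of the array whose gene name is one of the 10 symbols. These were 11 probes of 42405 on the array, 1 per gene except for POU5F1, which had 2. All 11 were well above background and none was saturated on any of the 9 arrays, and all 11 entered the tests, so that no member was lost to the filter on dim probes.

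The cells were hNT2, the NTERA-2 cl. D1 line of a human teratocarcinoma, which turns towards neurons when it is given retinoic acid. Every culture, the controls included, was in medium with 10 μM retinoic acid for 4 days (96 h in the sample titles). The 3 control arrays received no organophosphorus compound, the 3 paraoxon arrays 1 μM paraoxon and the 3 mipafox arrays 5 μM mipafox. Paraoxon is an esterase inhibitor that leaves neuropathy target esterase active, and mipafox is one that inhibits it. No culture without retinoic acid was among the 9 arrays, so the course of these genes during differentiation itself was not measured, and the study's question for them is whether an exposure altered their level at this early stage. The doses of the compounds differ. NT2 is a single cell line, and the arrays carry the letters A, B and C within a treatment. The study's methods call them technical replicates and its deposited description biological ones, so p-values measure the spread between these arrays, which may be technical.

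POU5F1 (also called OCT4), SOX2 and NANOG are transcription factors that sit at the centre of the network that keeps a cell pluripotent, and they bind together at many of one another's genes. Around them lie RNA-binding and chromatin proteins of early cells (LIN28B, L1TD1, DPPA4, DNMT3B), the zinc finger protein ZFP42, also called REX1, and members of the NODAL branch of TGF-beta signalling, the co-receptor TDGF1 (CRIPTO) and the ligand GDF3. Retinoic acid drives cells of this type out of the pluripotent state, and loss of POU5F1 and NANOG transcripts is a usual measure of that exit.

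The link between the 3 central factors can be read in the promoter of NANOG, which is shown for this reason. The stretch from 160 to 61 bases before the RefSeq start of NANOG (GRCh38.p14, chr12:7789242-7789341, plus strand) holds a site for a SOX factor next to one for a POU factor, in capitals.
NANOG promoter: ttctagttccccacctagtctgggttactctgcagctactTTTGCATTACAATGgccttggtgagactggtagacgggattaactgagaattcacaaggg
Read on the minus strand, the capitals hold the SOX letters CATTGT, then 1 base, then the POU letters ATGCAAA, from -120 to -107. Promoters of 8 of the 10 genes were at hand (not POU5F1 and TDGF1). Every promoter was searched on both strands in a window of equal length, which is not stated here and need not be the stretch shown. CATTGT was found in 3 of these 8 genes (NANOG, LIN28B and GDF3) and in 10.8% of all 35116 promoters. ATGCAAA was found in NANOG and SOX2 and in 4.46% of all promoters. The joined motif was found in NANOG alone of the 8, and in 0.00854% of all promoters. A match of letters describes the sequence and does not show that a factor is bound.

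What the arrays measured is a 60-base probe per gene. The files give its coordinates on hg19, and whether a probe lies in an exon or a UTR was not looked up, since an annotation of that build was not used here. Both POU5F1 probes lie on chromosome 6 on the minus strand. The brighter one (A_23_P59138, chr6:31132178-31132237) lies nearer the 3′ end, and the dimmer one (A_24_P144601) covers letters spread over 344 bases (chr6:31133025-31133368), so that it crosses a splice junction. The probes of POU5F1, NANOG, SOX2 and TDGF1 begin as follows (the first 30 bases, and the whole of the dimmer POU5F1 probe, which is shown because its values part from the brighter one's).
POU5F1, brighter probe: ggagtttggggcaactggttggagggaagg
POU5F1, dimmer probe: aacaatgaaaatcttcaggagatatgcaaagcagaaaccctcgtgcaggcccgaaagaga
NANOG: ggttgtgctaatctttgtagaaagaggtct
SOX2: tggccatgcaggttgacaccgttggtaatt
TDGF1: taggtggtggtagagaagcaagtaaaaagg
The NANOG probe lies at chr12:7948487-7948546 (plus strand), the SOX2 probe at chr3:181431877-181431936 (plus) and the TDGF1 probe at chr3:46623607-46623666 (plus). Further probes lie at chr6:105531071-105531130 (LIN28B, plus), chr3:109045928-109045987 (DPPA4, minus), chr20:31397064-31397123 (DNMT3B, plus), chr1:62677124-62677183 (L1TD1, plus) and chr4:188925963-188926022 (ZFP42, plus). POU5F1, NANOG and TDGF1 have closely similar copies elsewhere in the genome, and a signal of these 3 genes may hold transcripts of such a copy.

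A level is given below as log2 signal minus the 75th percentile of the same array, so that 0 stands for that percentile. A difference is given as a log2 fold change between the means of 3 arrays, from a limma fit over all 9 arrays, with its standard error (SE), its 95% interval and its Benjamini-Hochberg adjusted p over the 29134 probes tested. To be called, a probe needed a log2 fold change beyond 1 and an adjusted p under 0.05. There were 2 slides. The control arrays shared slide 1 with mipafox A, and the paraoxon arrays shared slide 2 with mipafox B and C, so paraoxon and control cannot be told apart from their slides except through the mipafox arrays. The 75th percentile of processed signal ran from 802 on mipafox A to 1590 on paraoxon A. A lower level in bulk RNA may be fewer cells that carry the transcript or less transcript per cell, which cannot be told apart here.

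None of the 10 genes was called with paraoxon or with mipafox. Each gene is given here at its brightest probe. The log2 fold changes ran from -0.27 (ZFP42) to 0.21 (SOX2) with paraoxon, with 3 genes higher and 7 lower. With mipafox they ran from -0.14 (POU5F1) to 0.16 (TDGF1), with 6 higher and 4 lower. The median over the 10 genes was -0.089 with paraoxon and 0.055 with mipafox, where all probes tested had a median of 0.012 and 0.00099. The smallest adjusted p of a member at these probes was 0.434 with paraoxon (GDF3) and 0.909 with mipafox (also GDF3). The dimmer POU5F1 probe was at -0.49 with paraoxon (limma adjusted p = 0.333) and -0.25 with mipafox (limma adjusted p = 0.891).

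Of all 29134 probes, 0% were called with paraoxon, 0% with mipafox and 0% between the compounds. At an unadjusted p under 0.05, limma counted 3884 probes (13.3%) with paraoxon, 2027 (6.96%) with mipafox and 1172 (4.02%) between the compounds. Of the 10 genes, 0, 0 and 1 were among these. With array weights the called probes were 671 with paraoxon and 800 with mipafox, and with control and paraoxon arrays alone in the fit 276 were called with paraoxon. No member was called under any of the settings tried.

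The intervals of the difference say how large a change these arrays could have missed. For all 10 genes the 95% interval lay within a log2 fold change of 1 either way in each comparison, and over all probes this held for 77.5% with paraoxon, 82.2% with mipafox and 85.8% between the compounds. At the brightest probes the widest limits were -0.69 (NANOG) and 0.70 (SOX2) with paraoxon, which are 0.619-fold and 1.62-fold. With mipafox they were -0.68 (POU5F1) and 0.60 (TDGF1). The interval of the dimmer POU5F1 probe reached further down, from -0.94 to -0.036 with paraoxon and from -0.69 to 0.20 with mipafox. The SE of a gene ran from 0.13 for GDF3 to 0.24 for POU5F1. With slide as a block, the intervals of 4 of the 10 with paraoxon and 8 of the 10 with mipafox lay within a log2 fold change of 1. The share of all probes under that block was not counted.

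**Figure D1:**
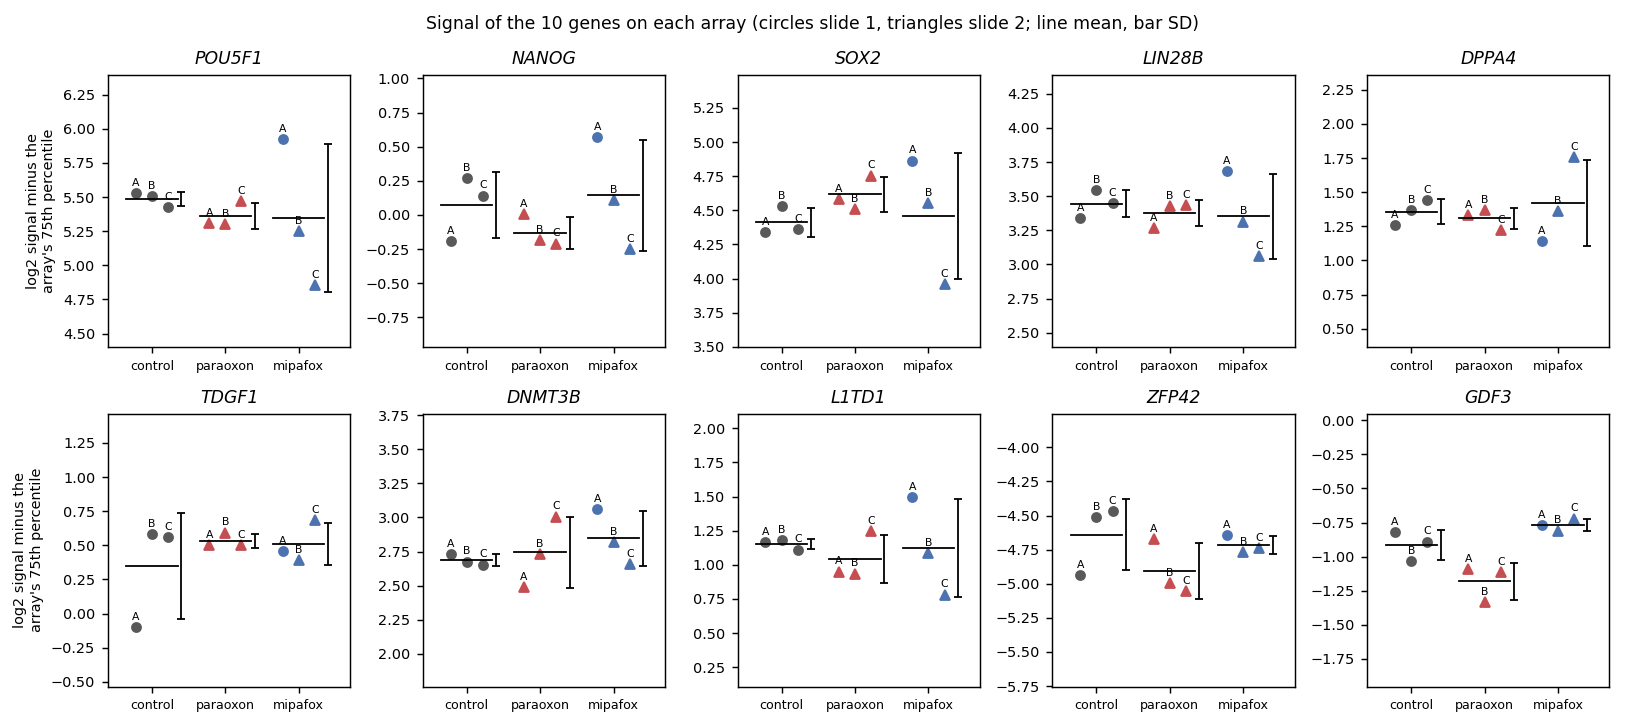
Log2 signal minus the array's 75th percentile (vertical axis, 2 log2 units high in every panel) of the 10 genes on each array by treatment, with the mean as a line and the SD as a bar (n = 3). Circles are slide 1 and triangles slide 2. Mipafox A is the highest of the 9 arrays for 6 genes and mipafox C the lowest for 5, while GDF3 is the only gene of these panels whose treatments do not overlap. How many of all probes are highest on mipafox A or lowest on mipafox C was not counted.

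POU5F1, the factor that embryonal carcinoma cells share with the inner cell mass, was well above background in every culture. In the order A, B and C, its level at the brighter probe was 5.53, 5.51 and 5.43 on the control arrays, 5.31, 5.30 and 5.47 on the paraoxon arrays, and 5.93, 5.25 and 4.86 on the mipafox arrays, and the same order is used for the other genes. The 3 control arrays and the 3 paraoxon arrays lay close together and overlapped, and the mipafox arrays held both the highest and the lowest value of the 9. The means were 5.49 ± 0.053 (SD, n = 3) in control, 5.36 ± 0.097 with paraoxon and 5.35 ± 0.54 with mipafox. With paraoxon the log2 fold change was -0.13 (SE 0.24, 95% interval -0.66 to 0.41, adjusted p = 0.884) and with mipafox -0.14 (SE 0.24, -0.68 to 0.40, adjusted p = 0.968).

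In scanner units the signal of this probe was high. Its processed signal was 46190, 61205 and 61916 on the control arrays, 63095, 47657 and 36350 on the paraoxon arrays, and 48781, 43036 and 36553 on the mipafox arrays. No spot of it was marked as saturated. The 75th percentile of mipafox A was the lowest of the 9 arrays, and whether the brightness of the probe or of the array plays a part in its high value there was not tested. After quantile normalization mipafox A lay 0.22 above the control mean for POU5F1, against 0.44 with the 75th percentile subtracted, and remained the highest of the 9.

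The dimmer POU5F1 probe gave another picture for paraoxon. Its level was 2.65, 2.73 and 2.61 on the control arrays, 2.48, 2.18 and 1.87 on the paraoxon arrays, and 2.73, 2.40 and 2.13 on the mipafox arrays. Every paraoxon array lay below every control array, and the mipafox arrays overlapped with both. The log2 fold change with paraoxon was -0.49 (SE 0.20, 95% interval -0.94 to -0.036), with an unadjusted p of 0.037 and an adjusted p of 0.333, so it did not pass the test. Groups that do not overlap were found at 23.4% of all probes in that comparison. With slide as a block it was -0.019 (SE 0.31, adjusted p = 0.986), and within slide 2 the paraoxon arrays differed from mipafox B and C by -0.085 (SE 0.23). All 5 arrays of slide 2 lay below all 4 arrays of slide 1 at this probe. Only mipafox had arrays on both slides, with mipafox A alone on slide 1, so slide and treatment cannot be told apart here. How many of all probes part by slide in this way was not counted.

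**Figure D2:**
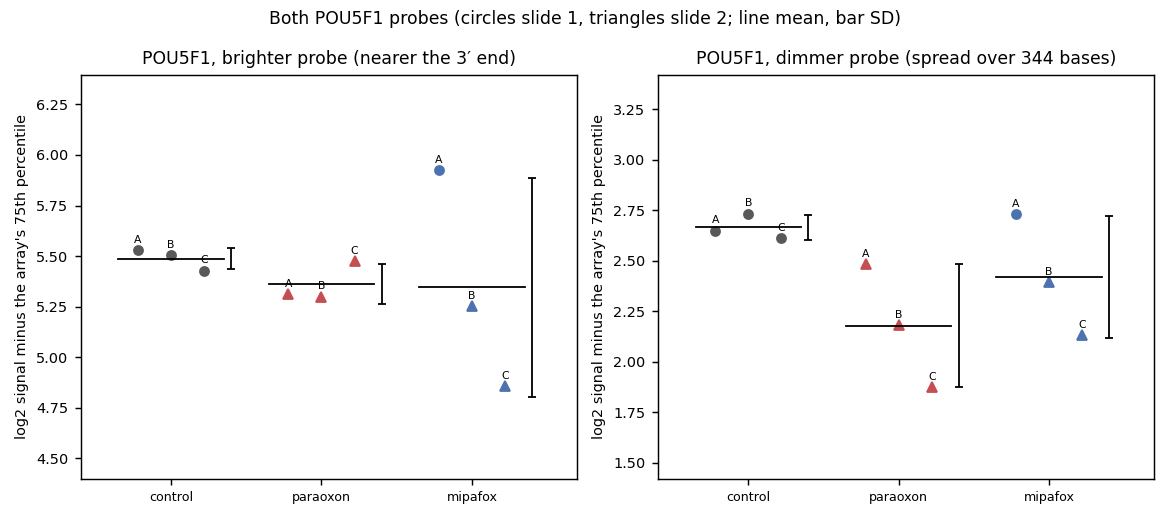
Log2 signal minus the array's 75th percentile (vertical axis, 2 log2 units high in both panels) of the POU5F1 probes on the 9 arrays by treatment, with the mean as a line and the SD as a bar (n = 3). At the dimmer probe the triangles of slide 2 (1.87 to 2.48) lie below the circles of slide 1 (2.61 to 2.73), and at the brighter probe paraoxon C (5.47) lies among the control arrays.

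SOX2, the HMG-box partner of POU5F1 that neural progenitors keep expressing, was also well above background in every culture. Its level was 4.34, 4.53 and 4.36 on the control arrays, 4.58, 4.51 and 4.76 on the paraoxon arrays, and 4.87, 4.55 and 3.96 on the mipafox arrays. Paraoxon A and C lay above all control arrays and paraoxon B between them, and mipafox A and C were the highest and the lowest of the 9. The log2 fold change was 0.21 with paraoxon (SE 0.22, 95% interval -0.29 to 0.70, adjusted p = 0.768) and 0.047 with mipafox (SE 0.22, -0.44 to 0.54, adjusted p = 0.990).

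NANOG, the homeodomain factor at the same promoters, lay near the 75th percentile of its arrays. NANOG measured -0.19, 0.27 and 0.14 on the control arrays, 0.0042, -0.18 and -0.21 on the paraoxon arrays, and 0.57, 0.11 and -0.25 on the mipafox arrays. The 3 treatments overlapped, and control A lay with paraoxon B and C and with mipafox C. The log2 fold change was -0.20 with paraoxon (SE 0.22, 95% interval -0.69 to 0.29, adjusted p = 0.770) and 0.071 with mipafox (SE 0.22, -0.42 to 0.56, adjusted p = 0.982).

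LIN28B, an RNA-binding protein that blocks the maturation of let-7 microRNAs, measured 3.34, 3.54 and 3.45 on the control arrays, 3.27, 3.43 and 3.43 on the paraoxon arrays and 3.68, 3.31 and 3.06 on the mipafox arrays. L1TD1, an RNA-binding protein that works with LIN28 proteins, measured 1.17, 1.18 and 1.11 on the control arrays, 0.95, 0.94 and 1.25 on the paraoxon arrays, and 1.50, 1.09 and 0.78 on the mipafox arrays. In both genes the mipafox arrays spanned the widest range, from A down to C, and the treatments overlapped. With paraoxon the log2 fold change was -0.068 for LIN28B (SE 0.17, 95% interval -0.46 to 0.32) and -0.11 for L1TD1 (SE 0.19, -0.54 to 0.32), and with mipafox -0.091 and -0.033.

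DNMT3B, the de novo DNA methyltransferase of early embryonic cells, measured 2.73, 2.68 and 2.65 on the control arrays, 2.49, 2.73 and 3.01 on the paraoxon arrays, and 3.06, 2.82 and 2.66 on the mipafox arrays. The control arrays differed by less than 0.1, and the exposed arrays scattered on both sides of them. DPPA4, a chromatin-associated protein of pluripotent cells, measured 1.26, 1.37 and 1.44 on the control arrays, 1.33, 1.37 and 1.22 on the paraoxon arrays and 1.14, 1.36 and 1.76 on the mipafox arrays. Its mipafox arrays ran in the opposite order to those of POU5F1, SOX2, NANOG, LIN28B, L1TD1 and DNMT3B, with A the lowest and C the highest. The log2 fold change of DNMT3B was 0.055 with paraoxon (SE 0.17) and 0.16 with mipafox, and that of DPPA4 -0.049 with paraoxon (SE 0.17) and 0.064 with mipafox.

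ZFP42 gave a low signal in scanner units, yet was well above background on every array. Its processed signal lay between 24.6 and 65.0, and the authors' own table of log2 values does not list its probe. Its level was -4.94, -4.51 and -4.47 on the control arrays, -4.67, -5.00 and -5.05 on the paraoxon arrays and -4.65, -4.77 and -4.74 on the mipafox arrays. Control A lay with paraoxon B and C, apart from control B and C. The log2 fold change was -0.27 with paraoxon (SE 0.17, 95% interval -0.65 to 0.12, adjusted p = 0.567) and -0.077 with mipafox (SE 0.17, adjusted p = 0.973).

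TDGF1, the membrane-bound co-receptor through which NODAL signals, measured 0.58 and 0.56 on control B and C but -0.10 on control A. It measured 0.50, 0.59 and 0.50 on the paraoxon arrays and 0.46, 0.39 and 0.68 on the mipafox arrays. Control A was the lowest of the 9 arrays, and all other 8 lay between 0.39 and 0.68. The log2 fold change was 0.18 with paraoxon (SE 0.20, 95% interval -0.26 to 0.63) and 0.16 with mipafox (SE 0.20, -0.28 to 0.60), and without control A it was -0.040 and -0.061.

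GDF3, a TGF-beta ligand of pluripotent cells, had a separate range in each treatment. Its level was -0.82, -1.03 and -0.89 on the control arrays, -1.09, -1.33 and -1.11 on the paraoxon arrays and -0.77, -0.81 and -0.72 on the mipafox arrays. Every paraoxon array lay below every control array, and every mipafox array above every control array. The log2 fold change was -0.27 with paraoxon (SE 0.13, 95% interval -0.56 to 0.032, adjusted p = 0.434) and 0.15 with mipafox (SE 0.13, -0.15 to 0.45, adjusted p = 0.909). In the log2 table of the authors control B lay below paraoxon A and C, so that paraoxon and control overlapped, and the log2 fold change with paraoxon was -0.14 there and -0.15 with array weights. Neither exposure passed the test, and the exact two-sided permutation p was 0.1 in each, the smallest that 3 arrays against 3 can give.

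At the probes that represent the 10 genes, 1 gene had treatments that did not overlap with paraoxon, 1 with mipafox and 1 between the compounds, and it was GDF3 each time. Over all probes the groups did not overlap at 23.4%, 11.8% and 8.96% in these comparisons.

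**Figure D3:**
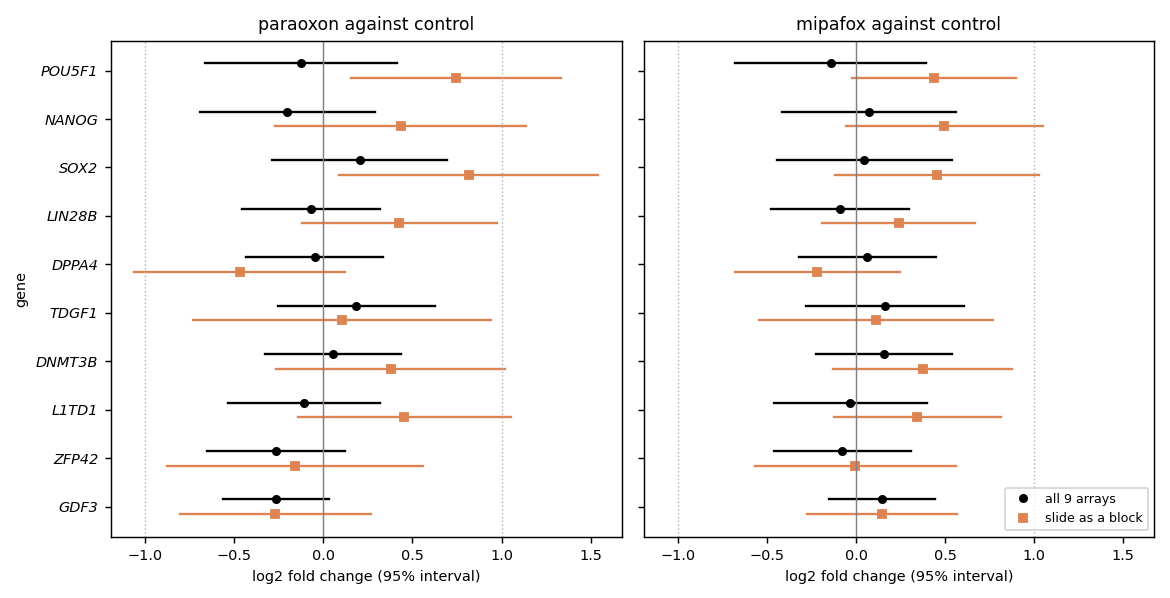
Log2 fold change (horizontal axis) of each gene with paraoxon and with mipafox against control, with its 95% interval, in the fit of all 9 arrays (black circles) and with slide as a block (orange squares). Each gene is shown at its brightest probe, and dotted lines mark a log2 fold change of 1 either way. All black intervals lie between the dotted lines and cross 0, and with slide as a block POU5F1 (0.74) and SOX2 (0.82) with paraoxon lie to the right of 0.

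A slide term in the fit moved the estimates of the central factors. With slide as a block, a term that rests on mipafox A against mipafox B and C, the log2 fold change with paraoxon was 0.74 for POU5F1 (SE 0.26, 95% interval 0.16 to 1.33, unadjusted p = 0.019, adjusted p = 0.613) and 0.82 for SOX2 (SE 0.32, 0.087 to 1.54, adjusted p = 0.613). NANOG was at 0.43, L1TD1 at 0.45, LIN28B at 0.43 and DNMT3B at 0.38, and DPPA4 at -0.47. GDF3 was at -0.27. The median of the 10 genes was then 0.40 with paraoxon, beside 0.10 for all probes, and 0.29 with mipafox, beside 0.061. At an unadjusted limma p under 0.05 there were 2 of the 10 genes with paraoxon (POU5F1 and SOX2), beside 2336 of all 29134 probes. With mipafox there were 0, beside 1596 probes. No adjusted p of the 10 genes was under 0.613 with paraoxon or 0.850 with mipafox.

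The slide term reflects the spread among the mipafox arrays. Mipafox A, on slide 1, exceeded the mean of mipafox B and C, on slide 2, by 0.87 for POU5F1, 0.64 for NANOG, 0.61 for SOX2, 0.56 for L1TD1, 0.49 for LIN28B and 0.32 for DNMT3B, and differed by -0.42 for DPPA4. It differed by -0.080 for TDGF1, 0.11 for ZFP42 and -0.0040 for GDF3. Mipafox A was above the control mean in 8 of the 10 genes with a median deviation of 0.29, mipafox B in 6 with 0.022 and mipafox C in 3 with -0.21, where the median deviation of all tested probes was 0.061, 0.034 and -0.085. With 1 mipafox array on slide 1, the slide and that array cannot be told apart. The paraoxon arrays lay below the control mean in 8, 6 and 6 of the 10 genes, with median deviations of -0.12, -0.10 and -0.013.

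**Figure D4:**
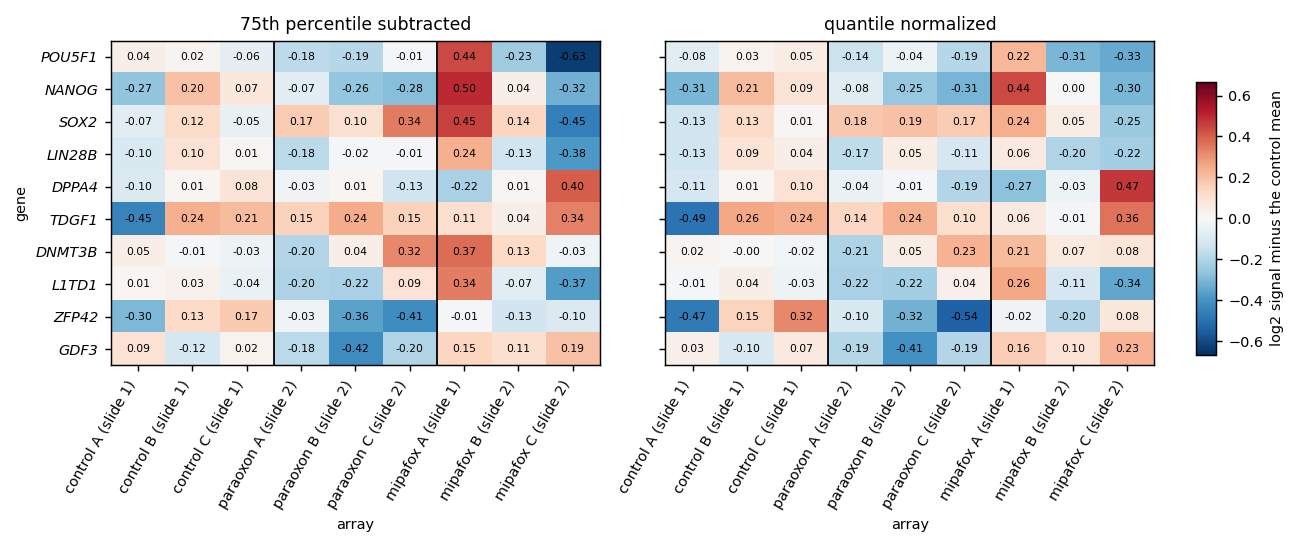
Deviation of each gene (rows) from its control mean in log2 units on the 9 arrays (columns), with the 75th percentile subtracted (left) and after quantile normalization (right), red for higher and blue for lower. Mipafox A is red and mipafox C blue for POU5F1, NANOG, SOX2, LIN28B and L1TD1 in both panels, with smaller values for POU5F1 on the right (0.22 and -0.33) than on the left (0.44 and -0.63).

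The compounds were given at different doses, 1 μM and 5 μM, so their values stand side by side without a comparison at matched dose. The direct contrast of paraoxon against mipafox ran from -0.41 (GDF3) and -0.27 (NANOG) to 0.16 (SOX2), and no gene was called. For GDF3 it was -0.41 (SE 0.13, 95% interval -0.71 to -0.12), with an unadjusted p of 0.012 and an adjusted p of 0.998, so the difference did not pass the test over all probes. Within slide 2 alone, where the 3 paraoxon arrays meet mipafox B and C, it was -0.41 too (SE 0.17, adjusted p = 0.950). For POU5F1 the contrast was 0.016 (SE 0.24, -0.52 to 0.55), for NANOG -0.27 (SE 0.22, -0.76 to 0.22) and for SOX2 0.16 (SE 0.22, -0.33 to 0.65).

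Around the 10 genes, a wider list of 44 genes of pluripotent cells had 42 on the array under their names, of which 39 were tested. No gene of it passed the adjusted test in any comparison. The median log2 fold change was -0.029 with paraoxon (17 higher and 22 lower) and 0.0033 with mipafox (20 higher and 19 lower). LIN28A, the paralog of LIN28B, measured 3.77 ± 0.018 (SD, n = 3) in control, 3.85 ± 0.22 with paraoxon and 3.77 ± 0.069 with mipafox. SALL4, a zinc finger partner of POU5F1, measured 4.23 ± 0.19, 4.12 ± 0.20 and 4.31 ± 0.077. DPPA2, the partner of DPPA4, measured -0.49 ± 0.21, -0.49 ± 0.11 and -0.46 ± 0.46. These 3 genes overlapped between treatments.

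PRDM14, a repressor found in the earliest pluripotent cells, was well above background on 8 of 9 arrays, and its log2 fold change was -0.59 with paraoxon (SE 0.40) and 0.21 with mipafox. NR6A1, a nuclear receptor that retinoic acid induces and that represses POU5F1, measured 4.68 ± 0.046 in control, 4.70 ± 0.41 with paraoxon and 4.76 ± 0.42 with mipafox. DNMT3L, the cofactor of de novo methylation, differed from control by -0.13 and 0.018, and TET1, which oxidizes methylcytosine, by -0.052 and -0.16, with paraoxon and mipafox in this order. At an unadjusted p under 0.05 there were 4 of the 39 genes with paraoxon, beside 13.3% of all probes, and 3 with mipafox (UTF1, REST and TFCP2L1), beside 6.96%, all named after their values were seen. UTF1, a chromatin factor of pluripotent cells, was at 0.60 (SE 0.24, adjusted p = 0.330), NR0B1 at -0.50 (SE 0.17), TRIM71, a let-7 target, at -0.49 (SE 0.21) and REST, a repressor of neuronal genes, at -0.85 (SE 0.25, adjusted p = 0.175). With mipafox the log2 fold change was 0.55 for UTF1, -0.70 for REST and -0.38 for TFCP2L1, with adjusted p of 0.713, 0.600 and 0.697. The 12 surface and enzyme markers of pluripotent cells were all tested, with medians of 0.0058 and -0.0013 and none past the adjusted test. At an unadjusted limma p under 0.05 were ITGA6 and ALPL with paraoxon, beside 13.3% of all probes, and none with mipafox. Between the compounds it was ALPL, beside 4.02%. With paraoxon ITGA6 was at 0.46 (SE 0.17, adjusted p = 0.288) and ALPL at -0.86 (SE 0.35, adjusted p = 0.333). Between the compounds ALPL was at -0.95 (SE 0.35, adjusted p = 0.998). Both were named after their values were seen.

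Genes that respond to retinoic acid were at hand on all 9 arrays. Of 26 such genes, 25 were well above background on every array, and none passed the adjusted test. The median log2 fold change was -0.016 with paraoxon (11 higher and 15 lower) and 0.019 with mipafox (13 higher and 13 lower). At an unadjusted p under 0.05 there were 3 of the 26 genes with paraoxon, beside 13.3% of all probes, and 2 with mipafox, beside 6.96%. With paraoxon they were HOXA5 at -0.57 (SE 0.14, adjusted p = 0.120), HOXB1 at -0.84 and MEIS2 at 0.36 (SE 0.13, adjusted p = 0.254). With mipafox they were HOXA5 at -0.37 and HOXB1. HOXA5 and MEIS2 were named after their values were seen. CYP26A1, the enzyme that degrades retinoic acid and a direct target of its receptors, measured 5.99 ± 0.12 (SD, n = 3) in control, 5.97 ± 0.11 with paraoxon and 5.99 ± 0.18 with mipafox. RARB, a receptor gene that retinoic acid induces, differed from control by -0.011 with paraoxon and 0.10 with mipafox. HOXB1 measured -2.83, -2.65 and -2.72 on the control arrays, -3.14, -3.35 and -4.24 on the paraoxon arrays and -3.22, -3.61 and -3.36 on the mipafox arrays. All 6 exposed arrays lay below the control arrays, where groups did not overlap at 23.4% of all probes with paraoxon and 11.8% with mipafox, with log2 fold changes of -0.84 (SE 0.26, adjusted p = 0.206) and -0.66 (SE 0.26, adjusted p = 0.669), which did not pass the test.

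Of 17 genes of neural progenitors and neurons, 13 were tested and none passed. The median log2 fold change was 0.13 with paraoxon (9 higher and 4 lower) and 0.11 with mipafox (8 higher and 5 lower). PAX6 measured 3.48 ± 0.087 in control, 3.55 ± 0.12 with paraoxon and 3.48 ± 0.23 with mipafox. NES (nestin) measured 4.17 ± 0.27, 4.04 ± 0.033 and 4.18 ± 0.090, and TUBB3, the neuronal beta-tubulin, 3.38 ± 0.23, 3.18 ± 0.12 and 3.49 ± 0.041. SOX1 was well above background on 1 of 9 arrays and was not tested. Markers of other lineages differed between lists. Of 7 endoderm genes 2 were tested (GATA6 and FOXA2) and TTR was above background on no array, and of 7 mesoderm genes 4 were tested, with T, EOMES and HAND1 above background on none. Of 7 trophoblast genes 6 were well above background on all 9 arrays and were tested, among them GATA3 and KRT7. None of these genes passed the adjusted test.

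Among 20845 tested probes of other named genes, those closest to the brighter POU5F1 probe over the 9 arrays, each centred on its own mean, were PHRF1, PTPLAD1, TRAF4, RRP8 and FAM159B (names as in the array's design). Their root mean square distance was 0.042, 0.043, 0.048, 0.049 and 0.054 log2 units, where the POU5F1 profile itself has a root mean square of 0.27. Those probes were picked for closeness and the members were not, so the 2 sets of distances are not compared. The members lay at 0.11 for L1TD1, 0.13 for LIN28B, 0.17 for SOX2 and 0.21 for NANOG, up to 0.42 for DPPA4. Ranked by distance among all these probes and the members, L1TD1 was at 210, LIN28B at 591, SOX2 at 1437 and NANOG at 2878. DNMT3B was at 3507, ZFP42 at 9041, GDF3 at 10026, TDGF1 at 13771 and DPPA4, the farthest member, at 14820. The profile of the mean of the 10 genes had a root mean square of 0.11, and its closest probes were those of TMEM199, C17orf39, PROCR, RRP36 and METTL13, at 0.026, 0.032, 0.037, 0.042 and 0.043.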

How the data were processed

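RNA of hNT2 cells was hybridized to 1-colour Agilent arrays, 3 per treatment. The authors extracted the spots with Feature Extraction 10.5.1.1 and deposited the processed signal, an intensity on a linear scale with the background subtracted. The deposited log2 table of the authors, made per the paper with Agi4x44PreProcess, serves here as an alternative. Spots marked as outliers and control spots were left out, log2 processed signal was averaged over the spots of a probe, and the 75th percentile of each array was subtracted. On each array 58717 spots measured 42405 probes, 65.7% to 73.6% of them well above background. Precision is limited by the number of arrays.

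The fit took 29134 probes, those that all 3 arrays of some treatment measured well above background, and was made with limma 3.58.1 in R 4.3.3, with 1 mean per treatment and Benjamini-Hochberg adjustment, after a test on simulated data. Called probes had a log2 fold change beyond 1 and an adjusted p under 0.05. Single values were tested with exact two-sided permutation tests (scipy 1.17.1). Figures were drawn with matplotlib 3.10.9. Promoter sequences came from RefSeq (GRCh38.p14).

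All 10 genes were named, each represented by its brightest probe. Of the other lists, genes past the adjusted test (none) and 15 chosen genes were to be named (1 of them, and 1 probe sequence, are not reported here), and the 5 probes of other genes closest in profile. The members and lists were chosen with earlier results of these data known. In all, 15 kinds of alternative were listed: normalization, background, filter, blocks, arrays in the fit, variance model, probes per gene and each array left out. The replicate letters gave no clear pairing of the arrays. Pairs of the same letter had deviations correlated from -0.60 to 0.57, with 5 of 9 above 0.1. Pairs of different letters ran from -0.59 to 0.66.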

Additional observations from a re-analysis of the deposited data

Results flagged for a closer look

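For GDF3 the exposures went opposite ways on every array. The 3 paraoxon arrays lay 0.18 to 0.42 below the control mean on the log2 scale and the 3 mipafox arrays 0.11 to 0.19 above it. The direct contrast of paraoxon against mipafox was -0.41 (limma, SE 0.13), with an unadjusted p of 0.012 and an adjusted p of 0.998 over 29134 probes. It was flagged because all arrays of one exposure moved one way and all of the other the opposite way. The share of all probes that did so was not counted. Leaving out any single array gave a contrast between -0.46 and -0.34, and it was -0.35 in the log2 table of the authors and -0.33 with array weights. These values rest on the same arrays, and in the log2 table of the authors control B lay below paraoxon A and C. The probe has 1 spot per array, and the treatments with 3 arrays were too small for a test of single outlying arrays.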

How the results depend on the processing

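Represented by its brightest probe, or by the mean of its probes, no member was past an adjusted p of 0.05 under any alternative. The smallest adjusted p of these 677 values was 0.182. Of them, 57 had the other sign, and the cause was not tested unless the alternative's construction shows it. The dimmer POU5F1 probe is not counted among them, and with array weights its limma adjusted p with paraoxon was 0.117. For paraoxon against control the called probes were 73 with normexp, 1 with slide as a block, 276 with only the 2 treatments, 671 with array weights and 0 to 276 with single arrays left out (276 without mipafox A, 93 without mipafox B, 1 without mipafox C). For mipafox against control they were 6 with slide as a block, 800 with array weights and 0 to 76 with single arrays left out (76 without mipafox A). Between the compounds it was 0 under every alternative. With the replicate block 0 probes were called in each comparison, and each array had its own letter as best match in 7 of 18 cases. The medians of the 10 genes moved to 0.40 (paraoxon, slide as a block) and 0.29 (mipafox, slide as a block or shared slide alone). With single arrays left out they ran from -0.13 to -0.061 with paraoxon, from -0.13 (without mipafox A) to 0.11 with mipafox, and from -0.20 to 0.00015 between the compounds.

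For paraoxon, slide as a block turned POU5F1 to 0.74, NANOG to 0.43, LIN28B to 0.43 and L1TD1 to 0.45, array weights turned TDGF1 to -0.021 and DNMT3B to -0.097, the authors' values turned LIN28B to 0.066 and normexp turned DPPA4 to 0.0033. For mipafox, slide as a block, and likewise the shared slide alone, turned POU5F1 to 0.44, LIN28B to 0.24, L1TD1 to 0.34 and DPPA4 to -0.22, array weights turned NANOG to -0.075, DPPA4 to -0.012 and TDGF1 to -0.12, and normexp turned ZFP42 to 0.091. Between the compounds, slide as a block, and likewise the shared slide alone, turned TDGF1 to -0.0049, DNMT3B to 0.0052 and L1TD1 to 0.11, the median in place of the 75th percentile turned POU5F1 to -0.014, LIN28B to -0.0074 and TDGF1 to -0.0083, array weights turned LIN28B to -0.027 and the mean over probes turned POU5F1 to -0.11.

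With single arrays left out, the genes that changed sign ran, with paraoxon, from -0.076 to 0.18 (DNMT3B) and -0.040 to 0.30 (TDGF1). With mipafox they ran from -0.11 to 0.20 (DPPA4), -0.22 to 0.14 (L1TD1), -0.26 to 0.054 (LIN28B), -0.14 to 0.27 (NANOG), -0.43 to 0.10 (POU5F1), -0.16 to 0.30 (SOX2), -0.061 to 0.28 (TDGF1) and -0.23 to 0.0094 (ZFP42). Between the compounds they ran from -0.23 to 0.023 (DNMT3B), -0.25 to 0.056 (DPPA4), -0.25 to 0.11 (L1TD1), -0.12 to 0.19 (LIN28B), -0.23 to 0.31 (POU5F1), -0.092 to 0.36 (SOX2) and -0.039 to 0.11 (TDGF1). The sign of GDF3 held in all 3 comparisons under every alternative.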
